A study of Mus musculus with 2 samples.

Results

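The keratin genes were taken as every protein-coding gene of GENCODE release M21 whose symbol is Krt followed by a number, which leaves out the keratin-associated protein (Krtap) genes. The rule found 53 genes of 21644, of which 26 lay in the type II cluster on mouse chromosome 15 (with Krt18, the type I gene at its end) and 27 in the type I cluster on chromosome 11. By their known sites of expression they were divided into 6 simple keratins, 3 basal keratins, 13 suprabasal and differentiation keratins, 6 stress and appendage keratins, 7 inner root sheath keratins, 16 hair keratins and 2 others (Krt222 and Krt90). DNase-seq, which finds chromatin open to the nuclease DNase I, was done on facial prominences (tissue buds of the future face) of healthy B6NCrl mouse embryos, males and females pooled, aged 11.5 days. The single group held 2 libraries, biological replicates 1 and 2, made from separate tissue samples under 1 donor entry, per the labels. Each had its own deposited list of 150 bp peaks with a value called strength here, and of hotspots, which are wider enriched regions with a −log10 q.

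Keratins are the intermediate filament proteins of epithelia. A type I keratin pairs with a type II keratin, so that the clusters supply partners to each other. Krt8 and Krt18 pair in simple epithelia and in the periderm, the outer layer of embryonic skin, Krt5 and Krt14 pair in the basal layer of stratified epithelium, Krt1 and Krt10 pair above it, and the hair keratins build the hair shaft. In the embryonic face such epithelium is a thin sheet over a mass of mesenchyme. In bulk tissue, fewer cells with an open site and weaker opening per cell cannot be told apart.

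Replicates 1 and 2 had 209299 and 219061 peaks on chromosomes 1 to 19 and X, with median strengths of 16 and 42. Strength is the authors' value with no stated unit and its scale differed between the libraries, so that a strength was read only against other peaks of its own library. A peak was promoter when its midpoint lay within 1 kb of a protein-coding transcription start site (TSS), and distal otherwise, and it counted as shared if the other library had a peak over at least 75 bp of it. Shared peaks numbered 85950, which is 41.1% of the replicate 1 list. The marker lists of the tissue gave shared promoter peaks at 10 of 10 facial mesenchyme genes, 6 of 8 surface ectoderm genes, 4 of 5 neuron genes, 2 of 5 endothelium genes and 0 of 5 erythroid genes, where 64.2% of all protein-coding genes had one. The 6 surface ectoderm genes include Krt8, itself a keratin, and the ectoderm and neuron counts are near the share of all genes. The surface ectoderm genes without one were Trp63, the master regulator of stratified epithelium, with a promoter peak of strength 40 in replicate 2 only, and Krt18.

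Few keratin promoters held a peak. In replicate 1, 6 of 53 keratin genes (11.3%) had a promoter peak, against 67.3% of all protein-coding genes. In replicate 2, 13 (24.5%) had one, against 70.8%. The mean over the libraries was 9.5 genes ± 4.95 (SD, n = 2). A shared promoter peak was found at 5 keratin genes (9.43%), against 64.2% of all genes: Krt7, Krt8, Krt10, Krt86 and Krt87. At 8 keratin genes the promoter peak was in replicate 2 only (background 4.34% of all genes), at Krt72 it was in replicate 1 only (background 0.869%), and 39 had none in either library. A gene counted when any of its TSSs had a peak. The 21644 genes had 41157 TSSs while most keratin genes had 1, and the part of this in the shares was not tested. From the first TSS to the nearest shared peak of any kind, the median distance was 11.3 kb over keratin genes and 0.176 kb over all genes.

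Hotspots gave the same counts. They were called on the same libraries and overlapped the peaks of the keratin genes, so they are not a separate check. A hotspot midpoint lay within 1 kb of a TSS at 6 keratin genes in replicate 1 (67.1% of all genes) and at 13 in replicate 2 (70.6%). Deposited −log10 q values ran from 1.3 to 6.0 and then stood at a ceiling of 100, with 0 hotspots between these values in either library. A promoter hotspot at the ceiling was found at 3 keratin genes in replicate 1 (Krt10, Krt72 and Krt86), where 56.9% of all genes had one, and at 3 in replicate 2 (Krt10, Krt75 and Krt86), where 64.1% had one. Krt10 and Krt86 were thus the keratin genes at the ceiling in both libraries, and no simple or basal keratin was at it in either.

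**Figure D1:**
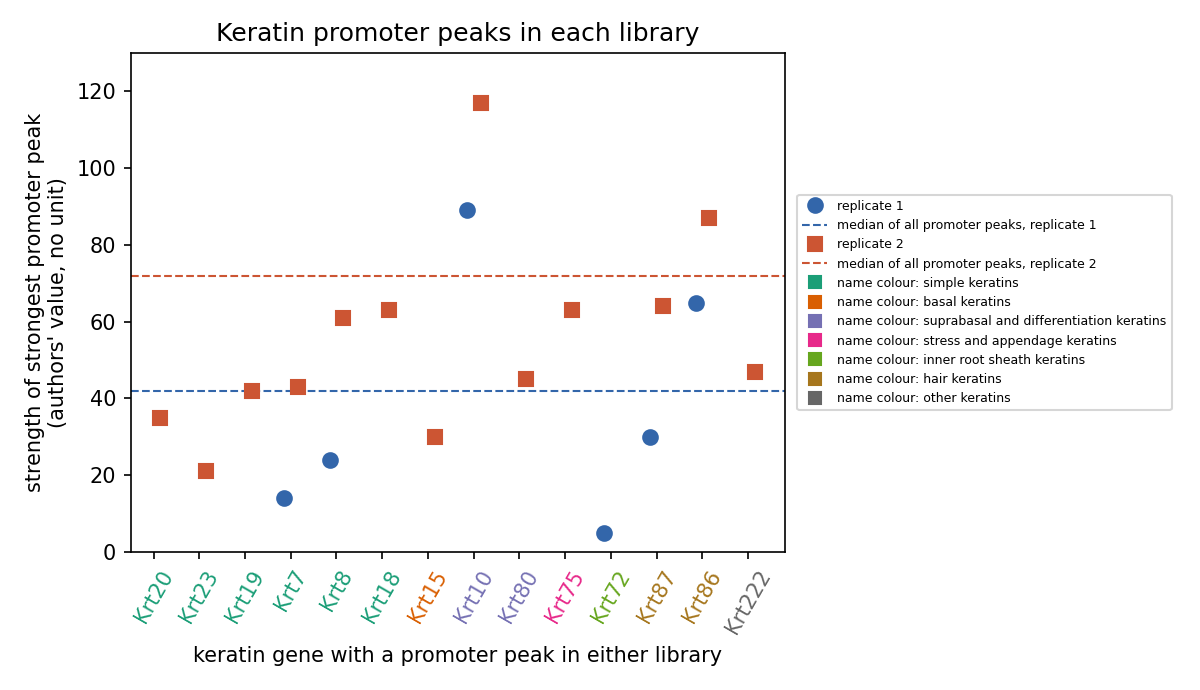
Strength of the strongest promoter peak (vertical axis, the authors' value without unit) at each keratin gene that had one in either library (horizontal axis, names coloured by class). Circles are replicate 1, squares replicate 2, and dashed lines the medians of all promoter peaks, 42 and 72; only Krt10 and Krt86 lie above the line of their library, in both.

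In replicate 2 all 6 of 6 simple keratins had a promoter peak, where 70.8% of all genes had one. In replicate 1 there were 2 of 6, as many genes as among the hair keratins, where 67.3% of all genes had one. The mean over the libraries was 4 ± 2.83 genes (SD, n = 2). A shared promoter peak was found at 2 of 6, against 64.2% of all genes. Krt8, the type II partner of Krt18, had shared peaks 51, 91 and 791 bp after its TSS, the first pair of them overlapping each other over exon 1. Their strengths were 22, 24 and 19 in replicate 1. The overlapping pair both matched 1 peak of replicate 2, of strength 60, and the other matched a peak of strength 38. Replicate 2 also had a shared peak of strength 61, centred 31 bp after the TSS. Between 17.1% and 26.3% of the promoter peaks of replicate 1 were weaker than those of Krt8, and between 19.4% and 40.6% of those of replicate 2. Krt7, a type II keratin of ducts and other simple epithelia, had a shared peak centred 471 bp before the TSS (mm10 chr15:101411856-101412005), with strengths of 14 and 43 and hotspot −log10 q values of 2.25 and 3.4. All of these strengths lay below the median of the promoter peaks of their own library, 42 and 72.

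Krt18, which partners Krt8, had a promoter peak in replicate 2 only, centred 9 bp before the TSS, with a strength of 63 and a −log10 q of 5.22. Krt19, a type I keratin of simple and progenitor epithelia, had peaks in replicate 2 only, of strength 40 at 29 bp and 42 at 889 bp after the TSS. Krt20, known from intestinal epithelium and Merkel cells, had peaks of strength 29 and 35 in that library, centred 1 and 661 bp before the TSS. Krt23, also of type I, had a peak of strength 21, 474 bp before the TSS. Only 2.43% of the promoter peaks of replicate 2 were weaker than that of Krt23, against 42.3% for Krt18. Thus the Krt8 promoter was called in both libraries and that of its partner Krt18 in 1.

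Of the basal keratins, 1 of 3 had a promoter peak in either library. Krt5 and Krt14, the pair that marks the basal layer, had none in either library. Krt15, the other basal type I keratin, had a peak in replicate 2 only, 783 bp before the TSS, with a strength of 30 and a −log10 q of 2.01. The count of basal keratins with a promoter peak was therefore 0 and 1 of 3 in replicates 1 and 2, a mean of 0.5 ± 0.707 (SD, n = 2). Of all genes, 67.3% and 70.8% had one.

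Of the 16 hair keratins, 2 had promoter peaks, against 67.3% and 70.8% of all genes in replicates 1 and 2. These were the same genes in both libraries. Krt86, a type II keratin of the hair cortex, had a shared peak centred 327 bp before the TSS (chr15:101473076-101473225) with strengths of 65 and 87, above 67.9% and 59.7% of the promoter peaks of replicates 1 and 2. Krt87, a gene of the same type II hair group, had overlapping shared peaks 73 and 153 bp after its TSS, over exon 1. The replicate 1 strengths were 30 and 23 and those of the matching replicate 2 peaks 64 and 44, with −log10 q values of 3.34 and 6.0. The stretch under the peak at 153 bp was 93.3% identical over 100% of its length to sequence within 1 kb of the Krt81 start, where no promoter peak was called. The other hair keratins (Krt31 to Krt36, Krt39, Krt40, Krt81 to Krt84 and Krt88) had no promoter peak in either library.

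Among the suprabasal and differentiation keratins, 1 of 13 had a promoter peak in replicate 1 and 2 of 13 in replicate 2, against 67.3% and 70.8% of all genes. Krt10, the type I keratin of suprabasal epidermis, held the strongest peak counted at any keratin promoter, with strengths of 89 and 117 and the ceiling −log10 q in both libraries. That peak (chr11:99386036-99386185) did not lie at the main start of Krt10. It was in exon 7, 3253 bp after the first TSS and 14 bp from the TSS of a short internal transcript, and no peak lay within 1 kb of the first TSS in either library. With 1 TSS per gene, Krt10 left the shared list, which then held 4 genes. Krt80 had peaks in replicate 2 only, of strength 34 at 9 bp before its first TSS and 45 near an internal TSS. Krt75, the companion layer keratin of the stress and appendage class, had a peak in replicate 2 only, 167 bp before the TSS, of strength 63 and at the ceiling. Krt72, of the inner root sheath, had its only promoter peak in replicate 1, 849 bp after the TSS, of strength 5, although its hotspot was at the ceiling. Krt222 had a peak of strength 47 in replicate 2 only. No promoter peak was found in either library at Krt1, Krt2, Krt4, Krt9, Krt12, Krt13, Krt24, Krt76, Krt77, Krt78 and Krt79 of the suprabasal class, at Krt6a, Krt6b, Krt16, Krt17 and Krt42 of the stress and appendage class, at Krt25 to Krt28, Krt71 and Krt73 of the inner root sheath, or at Krt90.

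The pair of shared promoter peaks at the ceiling are shown because they stand apart from the other keratin promoters, with capitals marking GGGCGG (GC box) or TGANTCA (AP-1 site) on either strand. Sequences are of GRCm38, the build of mm10, plus strand.
Krt10 exon 7, chr11:99386036-99386185: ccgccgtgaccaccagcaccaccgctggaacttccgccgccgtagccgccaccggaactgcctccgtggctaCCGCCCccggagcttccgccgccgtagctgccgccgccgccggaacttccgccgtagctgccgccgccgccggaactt
Krt86 upstream, chr15:101473076-101473225: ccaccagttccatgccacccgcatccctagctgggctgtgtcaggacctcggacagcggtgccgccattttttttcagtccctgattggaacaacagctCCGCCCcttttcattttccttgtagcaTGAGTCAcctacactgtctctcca
The Krt10 stretch was 74.7% GC with 24 CpG dinucleotides and repeated short GC-rich units throughout, within the coding part that gives the glycine-rich tail of the protein. The Krt86 stretch was 54.7% GC with 5 CpG and held 1 match to each motif. A match describes the letters only.

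Both libraries thus named a small set, and they differed mainly in the genes that replicate 2 added. The strongest promoter peaks of the 8 genes with one in replicate 2 only had strengths from 21 to 63, with a median of 43.5, and between 2.43% and 42.3% of that library's promoter peaks were weaker. Replicate 1 went the other way in the 27.8 kb from the Krt7 gene to the Krt87 gene, both included. It had 32 peaks there, of which 25 had a strength of 8 or less, and replicate 2 had 5, of which 0 were that weak; 4 were shared. Genome-wide, 62983 of the 209299 peaks of replicate 1 and 291 of the 219061 of replicate 2 were that weak. The depth of the libraries is unknown, and its part in these differences was not tested.

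Keratin promoters were CpG-poor. The observed/expected CpG ratio in the 1000 bp around the first TSS had a median of 0.323 over keratin genes (0.108 to 0.584) and 0.576 over all genes. The simple keratins had a median of 0.443, the basal keratins 0.272 and the hair keratins 0.328. In all genes the share with a shared promoter peak rose with this ratio, so keratins were set beside genes of like ratio, in steps of 0.1. At a ratio of 0.1 to 0.2, 0 of 5 keratins had a shared promoter peak and 11.3% of all genes did. At 0.2 to 0.3 it was 0 of 18 against 25.1%. At 0.3 to 0.4 it was 3 of 16 (Krt8, Krt10 and Krt86) against 44.4%. At 0.4 to 0.5 it was 0 of 9 against 70.5%, and at 0.5 to 0.6 it was 2 of 5 (Krt7 and Krt87) against 87.8%. The keratin share was the lower at each of the 5 steps that held a keratin. The ratio was taken at the first TSS, while a peak at any TSS of a gene counted. The Krt10 peak lay 3253 bp after the first TSS, so the ratio of Krt10 does not describe the place of its peak.

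**Figure D2:**
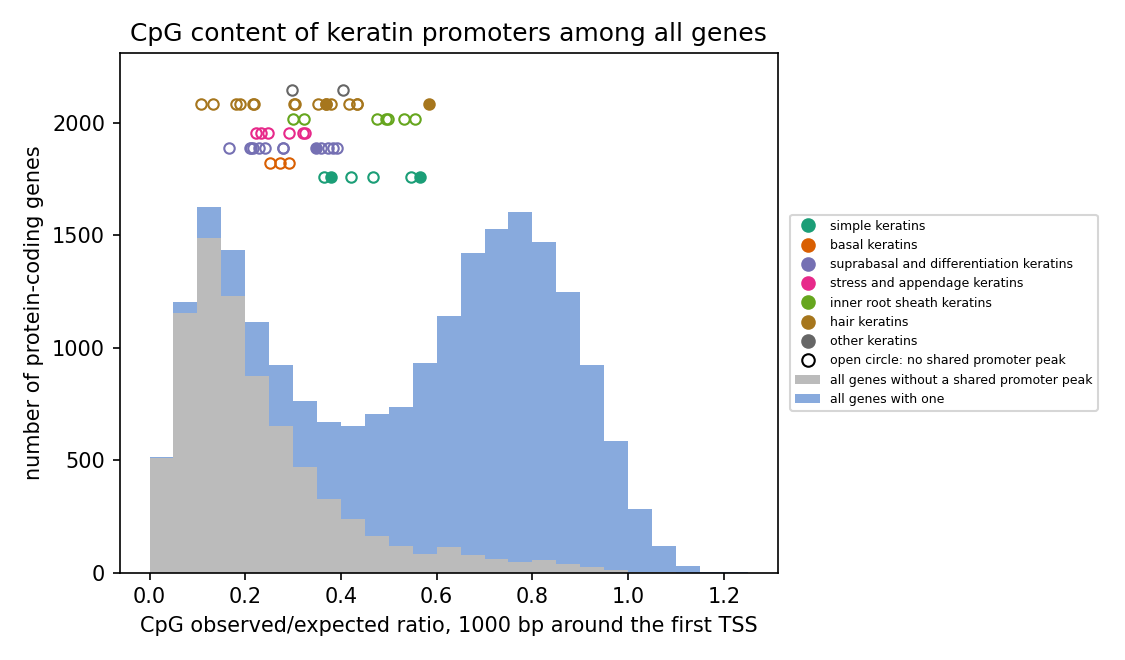
Number of protein-coding genes (vertical axis) by CpG observed/expected ratio (horizontal axis), split into genes with and without a shared promoter peak, with each keratin gene as a circle above, by class. All keratin circles lie between 0.108 and 0.584, and the filled ones are the 5 genes with a shared promoter peak.

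A second feature of keratin promoters was the TATA box, the AT-rich element that fixes the start of transcription at many tissue-restricted genes. TATAAA was searched on both strands in the 250 bases before and 50 bases after the first TSS. It was found at 25 of 53 keratin genes (47.2%) and at 12.5% of all genes. It was present at 6 of 7 inner root sheath keratins, 10 of 16 hair keratins, 2 of 3 basal keratins and 1 of 6 simple keratins (Krt20). Of the stress and appendage keratins 3 of 6 had it, of the suprabasal keratins 3 of 13 and of the others 0 of 2. On the gene's own strand, 15 keratins (28.3%) had it start 35 to 25 bases before the TSS, where a working TATA box sits, against 2.08% of all genes. These were Krt25, Krt26, Krt27, Krt28 and Krt71 of the inner root sheath, Krt31, Krt33a, Krt34, Krt83 and Krt86 of hair, Krt10, Krt12 and Krt76 of suprabasal epithelium, Krt17 and Krt20. No basal keratin was among them. Among all genes with TATAAA at that place, 24.8% had a shared promoter peak, against 65.1% of the others. Among the 15 keratins 2 had one (Krt10 and Krt86), and in both it lay outside the TATA stretch.

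**Figure D3:**
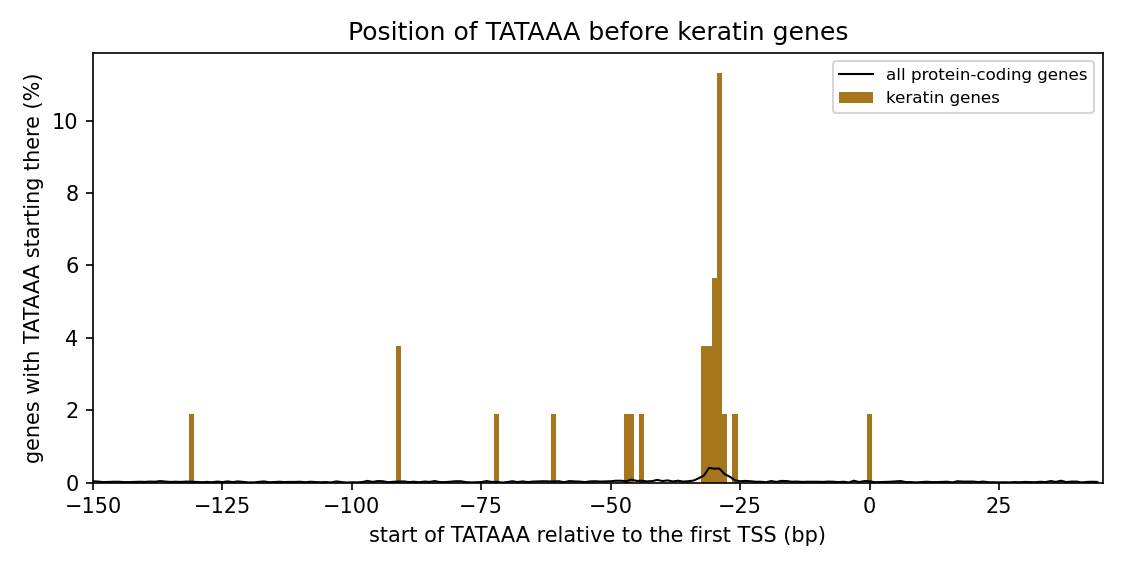
Percent of genes (vertical axis) in which TATAAA starts at each position before or after the first TSS (horizontal axis, bp), as bars for the 53 keratin genes and a line for all 21644 genes. Keratin bars crowd between 35 and 25 bases before the TSS, where the line also reaches its highest values.

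The 60 bases before the TSS are shown on the gene's strand. They set keratins with TATAAA against simple keratins without it in the searched window. Outside that window, Krt8 had TATAAA in its shared promoter peak centred 91 bp after the TSS. Capitals mark a TATA box, a GC box or an AP-2 motif.
Krt25, inner root sheath, chr11:99322952-99323011, minus strand: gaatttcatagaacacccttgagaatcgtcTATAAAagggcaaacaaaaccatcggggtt
Krt26, inner root sheath, chr11:99337967-99338026, minus strand: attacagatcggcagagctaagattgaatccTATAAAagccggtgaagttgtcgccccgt
Krt28, inner root sheath, chr11:99374904-99374963, minus strand: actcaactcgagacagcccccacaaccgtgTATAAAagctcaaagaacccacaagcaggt
Krt71, inner root sheath, chr15:101743110-101743169, minus strand: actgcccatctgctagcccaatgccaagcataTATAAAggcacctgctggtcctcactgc
Krt31, hair, chr11:100050552-100050611, minus strand: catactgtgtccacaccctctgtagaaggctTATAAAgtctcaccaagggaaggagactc
Krt10, suprabasal, chr11:99389365-99389424, minus strand: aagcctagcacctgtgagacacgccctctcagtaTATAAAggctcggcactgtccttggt
Krt20, simple, chr11:99438151-99438210, minus strand: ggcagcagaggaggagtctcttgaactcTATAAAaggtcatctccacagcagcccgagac
Krt8, simple, chr15:102004483-102004542, minus strand: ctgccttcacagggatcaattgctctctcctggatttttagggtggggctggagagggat
Krt18, simple, chr15:102028120-102028179, plus strand: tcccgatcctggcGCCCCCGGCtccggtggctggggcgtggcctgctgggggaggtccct
Krt19, simple, chr11:100146121-100146180, minus strand: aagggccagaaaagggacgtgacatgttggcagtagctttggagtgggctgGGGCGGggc
TATAAA began 30 bases before the TSS in Krt25 and Krt28, 29 in Krt26 and Krt31, 28 in Krt71, 26 in Krt10 and 32 in Krt20. The other motifs searched in the same window set keratins apart less. GGGCGG was found at 15.1% of keratin promoters and 45.3% of all, among them Krt7, Krt14, Krt19 and Krt87. The AP-2 motif GCCNNNGGC was at 22.6% against 18.9%, TGANTCA at 7.55% (Krt4, Krt13, Krt14 and Krt15) against 6.67%, and the Grainyhead-like AACCNGTT at 1.89% (Krt80) against 2.0%.

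Distal sites were counted next. At least 1 shared distal peak was nearest to 24 of 53 keratin genes (45.3%), against 62.8% of all genes. The keratins together had 48 such peaks, from 114 distal peaks in replicate 1 and 138 in replicate 2. The replicate 1 list repeats the entry chr15:101541536-101541685, nearest to Krt84, and both entries are counted in the 114. The mean per gene was 0.906 against 2.91 over all genes, and the highest was 5. These peaks were not weak: their median strengths were 32 and 67, against 28 and 63 over all 62952 shared distal peaks, and 43.8% lay in hotspots at the ceiling in replicate 1 against 38.3%. They lay a median of 9.71 kb from the TSS against 30.7 kb. Counts per gene and distances to the nearest TSS also depend on how closely genes are spaced. The type II cluster held 29 protein-coding genes in 0.685 Mb and the type I cluster 68 in 1.04 Mb, against 21644 in 2630 Mb. The part of spacing in these differences was not tested. Assignment to the nearest TSS does not show which gene a site acts on.

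By class, shared distal peaks were nearest to 5 of 6 simple keratins (15 peaks), 2 of 3 basal keratins (2 peaks), 7 of 13 suprabasal keratins (12 peaks), 2 of 6 stress and appendage keratins (4 peaks), 3 of 7 inner root sheath keratins (9 peaks) and 5 of 16 hair keratins (6 peaks). In that order the shares of genes were 83.3%, 66.7%, 53.8%, 33.3%, 42.9% and 31.2%, against 62.8% of all genes. The classes are small, and the basal and suprabasal shares lay near that of all genes. Krt8 had the most, 5, and Krt18 and Krt72 followed with 4 each. A pair of the Krt18 peaks overlap and match 1 peak of replicate 2, so that Krt18 has 3, and the keratins 47, when counted from the list of replicate 2. Krt19, Krt28 and Krt78 had 3, and Krt1, Krt17, Krt20 and Krt25 were among those with 2. The strongest shared distal peak of Krt72 (chr15:101772796-101772945, 13589 bp after the TSS) had strengths of 75 and 95, and that of Krt19 (chr11:100169116-100169265, 23071 bp before the TSS) 62 and 87. The strongest of Krt20 in replicate 1 (chr11:99464896-99465045) had 63 and 79, and that of Krt28 (chr11:99379716-99379865) 50 and 80. The peaks of Krt25 reached 44 and 77, those of Krt1 42 and 75, and those of Krt17 17 and 62.

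The basal keratins, which had no shared promoter peak, had 1 shared distal peak each at Krt14 and Krt5. That of Krt14 lay within its gene, in an intron 3897 bp after the TSS, with strengths of 55 and 82 and the ceiling −log10 q in both libraries. It was stronger than 95.3% and 90.2% of the distal peaks of replicates 1 and 2. That of Krt5 (chr15:101704196-101704345) lay beyond the end of the gene, 8627 bp after the TSS, with strengths of 20 and 65. The Krt14 site is shown because it was the strongest at a basal keratin, and none of the motifs searched was in it.
Krt14 intron, chr11:100203576-100203725, plus strand: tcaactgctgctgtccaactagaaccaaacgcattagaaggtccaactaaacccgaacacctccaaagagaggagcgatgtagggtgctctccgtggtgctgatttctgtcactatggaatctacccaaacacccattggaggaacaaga

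A group of strong shared sites lay at the end of the type II cluster. Over that cluster (0.685 Mb) there were 90 and 88 peaks in replicates 1 and 2 and 35 shared ones, or 51.1 shared peaks per Mb, against 32.6 over chromosomes 1 to 19 and X. The 90 include the repeated entry nearest to Krt84. In the 77.7 kb from the first TSS of Krt78 to the end of Krt18 (chr15:101954287-102032027), replicate 1 had 23 peaks and replicate 2 had 24. Of these 15 were shared (14 counted from replicate 2), 193 per Mb, and the other 607 kb of the cluster had 20, or 33.0 per Mb. The bounds of this stretch were chosen after its peaks were seen, so the density is a description. The stretch held 12 of the 48 shared distal peaks nearest to keratins, among them the 3 strongest in both libraries. The first of these lay 20031 bp after the TSS of Krt8, with strengths of 85 and 120. The others lay 19584 and 23204 bp before the TSS of Krt78, of the suprabasal class, with strengths of 83 and 79 in replicate 1 and 107 and 117 in replicate 2. A site 16171 bp after the Krt8 TSS had 70 and 90, and one in the first kilobases of Krt8, 1331 bp after the TSS in an intron, had 53 and 101.

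These sites had higher strengths than any promoter peak of Krt8 or Krt18 in the same library, and 4 of them are shown on the plus strand. Capitals mark a GC box, an AP-1 motif or the core of the motif of CTCF, a protein that bounds chromatin loops, on either strand.
Krt78 upstream, chr15:101977416-101977565: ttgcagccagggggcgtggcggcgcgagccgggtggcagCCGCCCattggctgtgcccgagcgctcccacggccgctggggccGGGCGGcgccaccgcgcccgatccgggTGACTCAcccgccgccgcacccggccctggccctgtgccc
Krt8 downstream, chr15:101984376-101984525: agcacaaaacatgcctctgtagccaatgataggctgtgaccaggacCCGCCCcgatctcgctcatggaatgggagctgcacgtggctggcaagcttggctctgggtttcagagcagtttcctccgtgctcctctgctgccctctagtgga
Krt8 downstream, chr15:101988236-101988385: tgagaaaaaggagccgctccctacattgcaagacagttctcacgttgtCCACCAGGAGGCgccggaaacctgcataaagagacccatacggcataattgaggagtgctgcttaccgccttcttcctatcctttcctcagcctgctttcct
Krt8 intron, chr15:102003076-102003225: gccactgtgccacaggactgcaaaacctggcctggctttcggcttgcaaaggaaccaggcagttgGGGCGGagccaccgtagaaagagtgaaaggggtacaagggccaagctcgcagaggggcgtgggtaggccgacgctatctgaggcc
The first was 81.3% GC with 21 CpG, and the others 58.0%, 52.0% and 62.0% GC. Over all 48 shared distal keratin peaks, 16.7% held GGGCGG against 9.15% of all shared distal peaks, 12.5% held the CTCF core against 9.88%, 2.08% held TGANTCA against 4.4% and 0.0% held AACCNGTT against 1.43%.

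**Figure D4:**
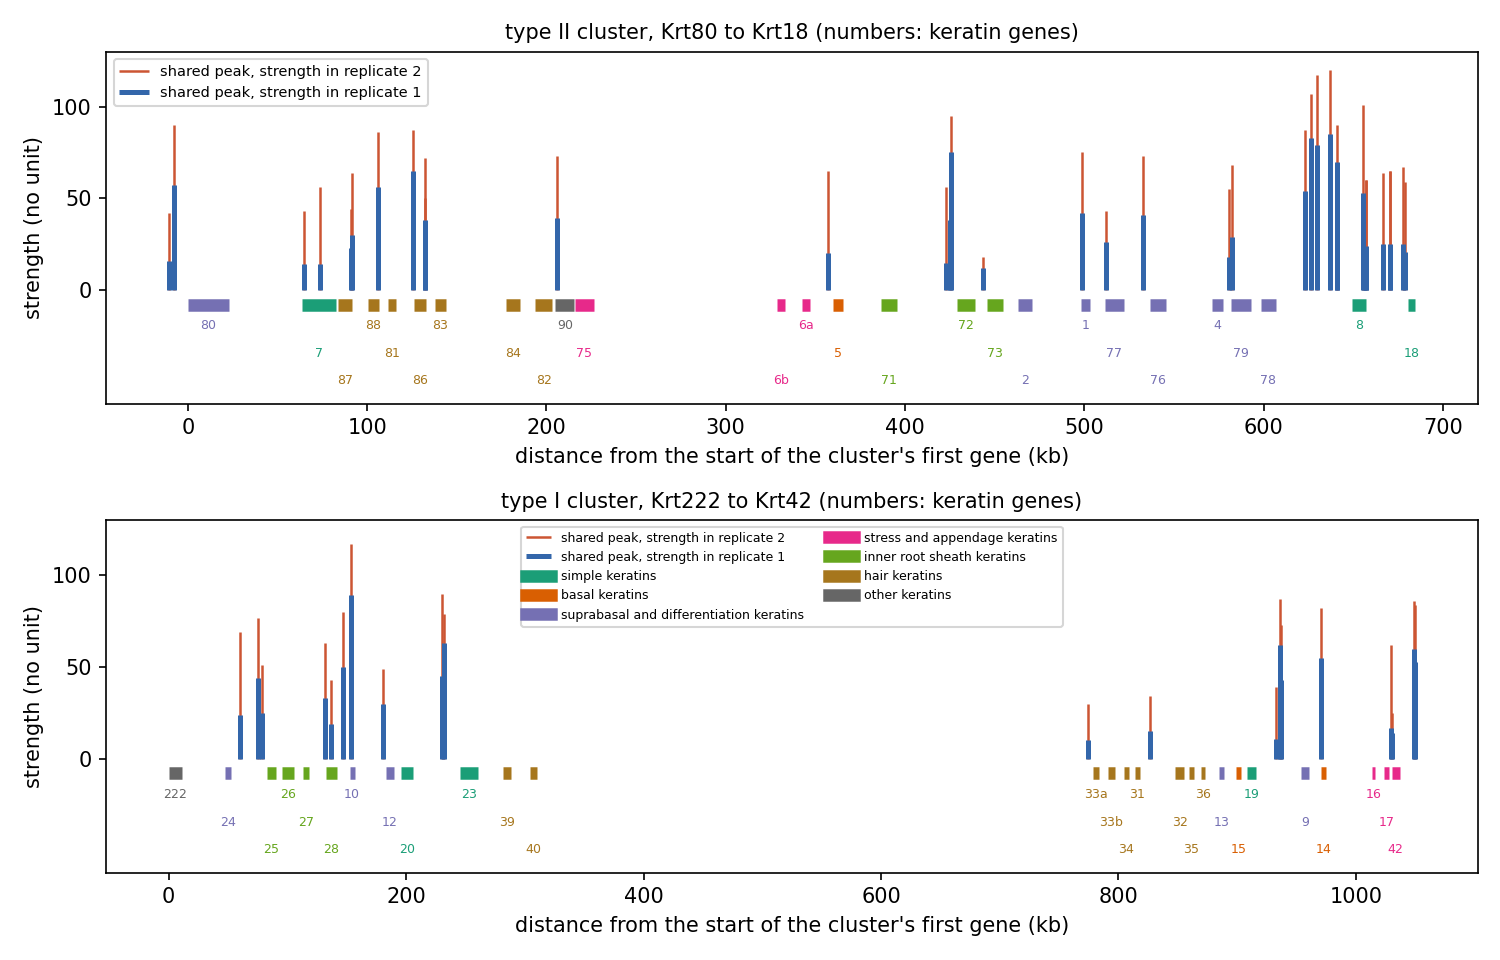
Shared peaks nearest to keratin genes along the type II (upper) and type I (lower) clusters, with distance from the start of the first gene in kb (horizontal axis) and strength without unit (vertical axis) in replicate 1 (thick lines) and replicate 2 (thin lines), above the keratin genes coloured by class. The tallest distal lines of the type II cluster, at 85 and 120, stand between Krt78 and Krt8, and the tallest of the type I cluster, at 89 and 117, is the Krt10 peak; peaks nearest to other genes are not drawn.

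The type I cluster, of 1.04 Mb, held 38 peaks in replicate 1, 77 in replicate 2 and 20 shared peaks, or 19.3 per Mb. From Krt222 to Krt40 there were 32.2 shared peaks per Mb and from Krt33a to Krt42 there were 27.1, both near the 32.6 of the genome. Between these stretches, where 23 of 41 genes are Krtap genes, there were 6.41. Of the 8 genes that flank the clusters, 5 had a shared promoter peak, a share near the 64.2% of all genes. Their strengths were 88 and 116 at Smarce1, 112 and 138 at Eif1, 83 and 127 at Atg101, 116 and 138 at Eif4b and 27 and 78 at Tns2. Of the other flanking genes, 6030408B16Rik had a promoter peak in replicate 2 only, of strength 67, and Ccr7 and Gast had none.

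Within keratin genes, shared peaks away from the promoter lay mostly at the end of the gene. Of 11 such peaks, 6 (54.5%) lay in the last 10% of the gene's length, 2 of them in Krt86. Of the 3810 peaks counted in other genes, 12.1% did. Peaks within 1 kb of a TSS were left out, which removes more of the start of a short gene. The part of this in these shares was not tested. A shared peak lay in the last exon at 6 of 53 keratins (11.3%), against 5.84% of genes of 3 or more exons and 5.69% of those within the length range of the keratins (2812 to 22719 bp). These were Krt86, Krt88, Krt90, Krt1, Krt77 and Krt79, all on chromosome 15. The last exon of Krt88 held strengths of 56 and 86 over 134 coding bases, and that of Krt86 38 and 72 over 150 coding bases, both at the ceiling in both libraries. The last exon of Krt90 held 39 and 73, that of Krt1 42 and 75, that of Krt79 29 and 68 and that of Krt77 26 and 43. Of these 6 genes only Krt86 also had a promoter peak.

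Genes whose products act with keratins were counted in the same way. Of 14 desmosome and hemidesmosome genes, whose proteins anchor keratin filaments, 8 had a shared promoter peak, with strengths of 101 and 143 at Jup (plakoglobin), 70 and 109 at Dst (dystonin), 55 and 99 at Plec (plectin) and 51 and 105 at Pkp2 (plakophilin). That share, 57.1%, was near the 64.2% of all genes. Dsg3 and Col17a1, of stratified epithelium, had no promoter peak in either library. Of 17 epithelial regulators, 15 had one, with strengths of 98 and 132 at Grhl1 and 95 and 132 at Klf4, and the others were Trp63 and Ehf. Among 15 other intermediate filament genes, which are not keratins, 12 had one. Of 10 cornified envelope genes, whose products build the outer barrier of mature skin, 1 (Lor) had one. The median CpG ratios of these lists were 0.649, 0.62, 0.792 and 0.141, so that the lists differed in promoter sequence as well. By counts against 64.2% of all genes, the keratins at 9.43% were nearest among these lists to the cornified envelope genes.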

How the data were processed

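Peaks and hotspots were called by the authors per library on mm10, per the labels and the deposited files; for aligner and caller, names and versions are not stated in the labels or headers used here. The strength of a peak is a deposited score of unstated meaning, and each hotspot carries a deposited −log10 q and a score that was not used. Read totals were not used here, so depth is unknown and no interval is given. Genes were GENCODE M21 basic protein-coding genes merged by symbol, with 41157 TSSs. Sequence was GRCm38.p6. Overlaps, distances and motif matches were computed in Python 3.11.15 (numpy 2.4.6, pandas 2.3.3) and tested on simulated data, and copies of sequence on both keratin chromosomes were sought with BLAST 2.17.0, counting matches over at least 80% of the length. The members, classes and lists were chosen with earlier results of these data known, so no list was tested. Every keratin with a promoter peak was named, all simple and basal keratins, the 10 genes with the most shared distal peaks, up to 4 members of each further list and 2 genes flanking each side of a cluster. The CTCF core, the TATA position, the CpG steps, the last exons, the copies and the Krt7 to Krt87 and Krt78 to Krt18 stretches were chosen after seeing the data. Alternatives were other promoter windows, overlaps and peak filters, 1 TSS per gene, a distance limit of 100 kb and each library alone.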

Additional observations from a re-analysis of the deposited data

How the results depend on the processing

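Of 86 alternatives for counts over keratins or a class, 50 stayed within 1.5 times the reported count and 36 did not. With the 50000 strongest peaks of each library, shared promoter peaks were at 2 keratins (Krt10 and Krt86), with 0 simple and 1 hair keratin, and 2 keratins had a promoter peak in replicate 1 and 2 in replicate 2. Shared distal peaks then numbered 22, with 7 at simple, 1 at basal and 3 at hair keratins. In hotspots with a −log10 q of at least 10, the shared promoter count was 2 (simple 0, hair 1), 3 keratins had a promoter peak in replicate 1 and 3 in replicate 2, and shared distal peaks were 21 (simple 6, basal 1, hair 2). With an overlap of 90% of a peak's width, 1 keratin promoter was shared (Krt87, a hair keratin; simple 0), and 19 distal peaks were (simple 6, basal 1). A window of 2500 bp gave promoter peaks at 10 keratins in replicate 1 and 21 in replicate 2. With either library alone, promoter counts ran from 6 to 13 over all keratins, 2 to 6 for simple and 0 to 1 for basal keratins, and distal counts from 114 to 138, 33 to 35 for simple, 3 to 9 for basal and 24 to 27 for hair keratins. Of these distal counts, the 114 over all keratins and the 24 for hair keratins include the repeated entry nearest to Krt84. Of 126 alternatives for single genes, 24 moved. Shares of all genes under these alternatives are not given, so whether keratins moved more or less than all genes is not shown. Depth is unknown, so a promoter without a peak was not detected here, and this does not show whether it was closed. No paired analysis was possible because the libraries form a single group.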
